A study of Mus musculus with 4 samples.

Results

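Sesn1, Sesn2, Sesn3, Ddit4, Zmat3, Polk, Ddb2, Xpc and Rrm2b are grouped here as p53-responsive genes of metabolism, RNA control, DNA repair and nucleotide supply. They were chosen by symbol, and every probe set that the platform annotation gives to one of these 9 genes was taken, or 9 of the array's 18193 gene symbols and 19 of the 34945 probe sets with 1 symbol. A probe set is a group of short probes that read one transcript region, and each is described separately, since levels cannot be set against each other between probe sets. Of the 19, 15 passed the filter on dim signals, a mean of at least 67.95 over the arrays, and all 15 read above 46.5, the floor below which signals were not ordered, on every array. The other 4 read between 2.3 and 95.4. The cells were mouse embryonic fibroblasts (MEFs), cells grown out of embryos, labelled Wip1+/+ or Wip1-/-. Wip1, the product of Ppm1d, is a phosphatase known to act on p53 and on the kinases that activate it. Each genotype gave 1 array of unirradiated cells at 0 h and 1 array of cells taken 4 h after 5 Gy of gamma radiation, 4 arrays in all. No array holds unirradiated cells at 4 h, so radiation and 4 h of culture cannot be told apart, and the labels do not say from which embryos, passages or cultures the RNA came.

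p53 is a transcription factor that DNA damage stabilises, and its targets reach beyond arrest and death into repair and metabolism. Sestrins and Ddit4 (also called Redd1) restrain TORC1, the kinase complex that drives growth: sestrins hold back its amino acid sensing arm, and Ddit4 acts through the Tsc1 and Tsc2 complex. Ddb2 and Xpc find lesions for nucleotide excision repair, Polk is a DNA polymerase that copies past damaged bases, and Rrm2b is the p53-inducible small subunit of ribonucleotide reductase, which makes deoxynucleotides. Zmat3 is an RNA-binding zinc finger protein.

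Promoters of 5 of the 9 genes were matched by symbol in a RefSeq table of assembly GRCm38.p6, with 7 start sites between them and a window of 250 bases before to 50 after each start. The table holds Sesn1 and Polk with more than 1 start, and Sesn2, Sesn3 and Ddit4 with 1 each. A search of both strands covered the p53 half-site consensus, TGATGNAA (bound by ATF4), GTAAACA (FoxO factors), ACGTGC (hypoxia-inducible factors) and CACGTG, the E-box, which overlaps ACGTGC where CACGTGC is read. The p53 half-site stood 173 bases before a Sesn1 start and 231 bases before a Polk start. In that Polk window G and C made up 44.33% of bases, against 68.67% at the other Polk start. Which Polk start these cells use is not known here. The half-site is held by 8.36% of all 32851 promoter windows. The Ddit4 window held ACGTGC 187 bases before the start, a match found in 5.91% of windows. GTAAACA lay 23 bases after the other Sesn1 start and TGATGNAA 21 bases after the Polk start with the half-site, on the reverse strand in both cases, against 3.65% and 3.97% of windows. No CACGTG was found in the 7 windows, against 7.15% of all windows, and the Sesn2 and Sesn3 windows held no match to any of the 5. The sequences of 250 bases before the start are shown for the windows with a match upstream and for the other Polk start, since Polk gave the widest irradiation ratio. Each reads 5′ to 3′ on the gene's strand, with the match in capitals.
Sesn1, chr10:41887189-41887438, plus strand: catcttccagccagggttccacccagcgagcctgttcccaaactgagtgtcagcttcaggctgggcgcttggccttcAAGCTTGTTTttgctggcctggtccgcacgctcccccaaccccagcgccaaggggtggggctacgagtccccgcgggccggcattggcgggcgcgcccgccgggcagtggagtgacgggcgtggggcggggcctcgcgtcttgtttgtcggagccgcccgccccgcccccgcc
Polk, chr13:96519188-96519437, minus strand: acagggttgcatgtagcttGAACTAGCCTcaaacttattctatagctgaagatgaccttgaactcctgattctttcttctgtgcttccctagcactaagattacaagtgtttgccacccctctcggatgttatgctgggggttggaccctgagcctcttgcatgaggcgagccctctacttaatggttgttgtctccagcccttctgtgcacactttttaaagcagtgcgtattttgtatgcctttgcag
Polk, other start, chr13:96542580-96542829, minus strand: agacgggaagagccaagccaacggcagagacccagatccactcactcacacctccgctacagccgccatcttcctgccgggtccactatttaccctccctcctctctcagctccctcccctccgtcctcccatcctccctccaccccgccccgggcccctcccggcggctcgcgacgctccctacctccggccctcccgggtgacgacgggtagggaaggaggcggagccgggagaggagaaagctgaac
Ddit4, chr10:59951771-59952020, minus strand: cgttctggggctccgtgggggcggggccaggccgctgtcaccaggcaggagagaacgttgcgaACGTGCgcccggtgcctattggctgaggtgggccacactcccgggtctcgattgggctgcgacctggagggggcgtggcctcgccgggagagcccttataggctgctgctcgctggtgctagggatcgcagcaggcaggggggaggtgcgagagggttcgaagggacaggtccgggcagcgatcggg
A match of letters in these windows is a description, not a binding site, and p53 sites can lie outside them.

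Ppm1d did not check the genotype labels. Its probe sets read 375 and 317 on the unirradiated Wip1+/+ array and 364 and 463 on the irradiated one. On the arrays labelled Wip1-/- they read 504 and 219, then 482 and 561, so neither was lower on both. Their place in the gene relative to the deleted part is unknown here, and the samples are called cells or arrays labelled Wip1-/-. One array differed from the others, that of unirradiated cells labelled Wip1-/-. Over 18 spike-in controls, transcripts added in fixed amounts, log2 ratios had an SD of 0.44 to 0.47 in the pairs with this array and 0.07 to 0.10 in the pairs without it. Fibroblast markers were above the floor on all arrays, 16 of 16. All 14 macrophage markers that passed the filter were lower on the arrays labelled Wip1-/-. Summed over all 15 macrophage markers, the signal of unirradiated and irradiated cells was 10199 and 10332 for Wip1+/+, against 2777 and 2390.3 for the other genotype. Itgam was below the floor on all 4 arrays. The part of this difference in the genotype comparisons below was not tested. In RNA from whole cultures, fewer cells of a type and less RNA per cell cannot be told apart.

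With 1 array per group there is no test of any difference below. Ratios are given beside the SD of log2 ratios among probe sets that share a gene, called the SD between probe sets, which covers differences between probes and not those between cultures, and beside the share of all probe sets as far apart. In each comparison 20326 probe sets with 1 symbol passed the filter, and 14525 of them had a mean signal of at least 200. Counts of these brighter probe sets use the SD over all that passed. The SD over the brighter ones alone was smaller and is given beside the counts. The share of all brighter probe sets beyond that smaller SD was not computed.

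**Figure D1:**
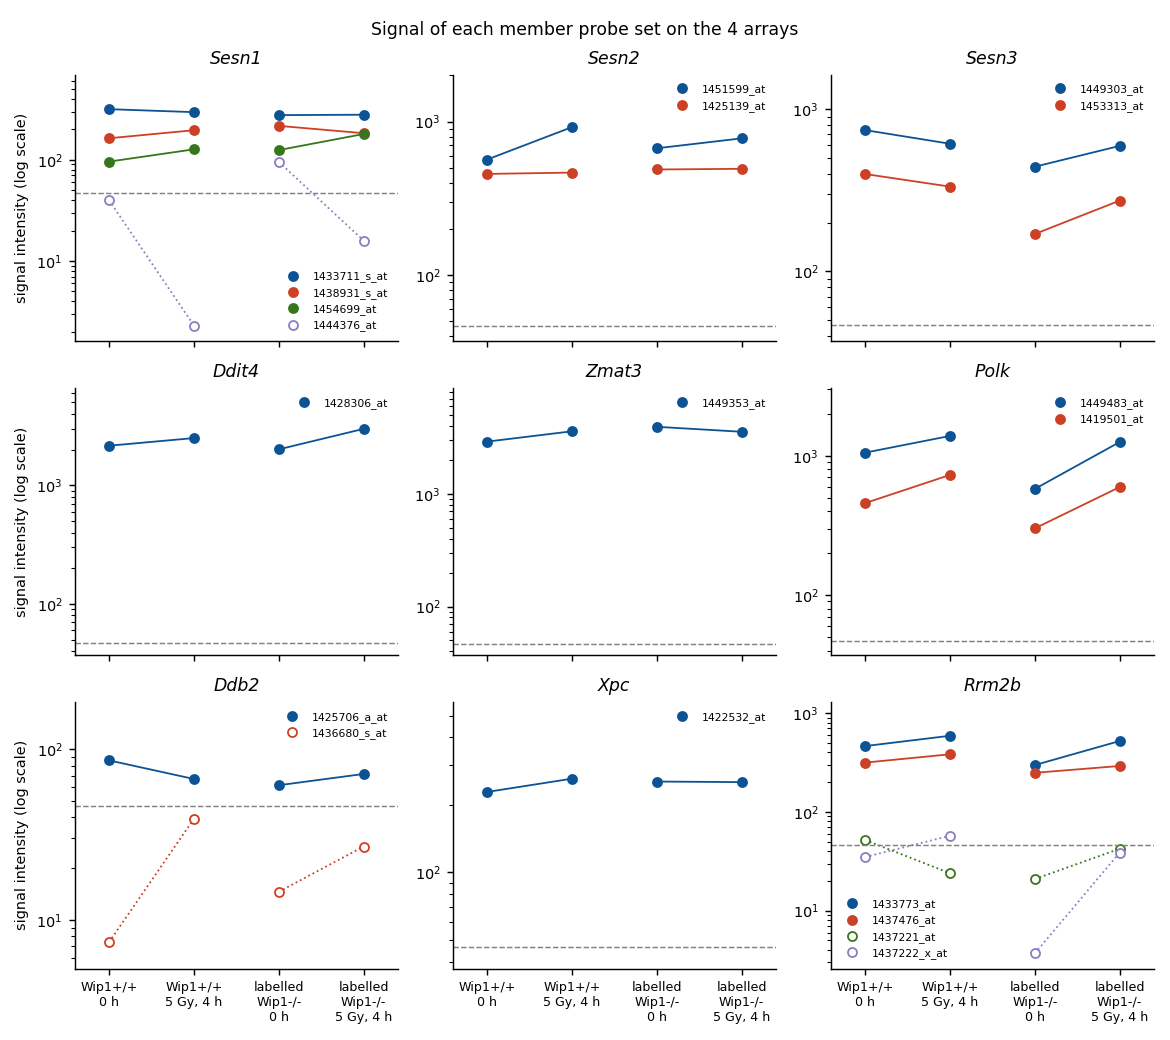
Signal intensity of each member probe set (log axis) on the 4 arrays, 1 point per array, with lines joining the arrays of a genotype. Filled points are the 15 probe sets that passed the filter, open points with dotted lines the 4 that did not, and the dashed line is the floor of 46.5. Both Polk probe sets are lowest on the unirradiated array labelled Wip1-/-, at 579 and 301.

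In Wip1+/+ cells, Polk, Rrm2b, Sesn2, Ddit4, Zmat3 and Xpc read higher 4 h after irradiation by every probe set that passed, and Sesn3 and Ddb2 read lower. The differences were modest, from 1.02-fold to 1.63-fold upward. Of the 15 probe sets, 11 had a ratio above 1, against 49.7% of all probe sets, and the median log2 ratio was 0.26 against 0.00. None was at least 2-fold higher or lower, where 1.54% of all probe sets were higher and 1.97% lower by that much. Ratios beyond the SD of 0.37 between probe sets of one gene were found in 4 of 15, or 26.7%, against 25% of all probe sets. Among the 12 members with a mean of at least 200 the count was 3, or 25%, against 14.5% of all probe sets that bright. The SD of the brighter probe sets alone was 0.24. Both probe sets of Polk, Rrm2b and Sesn3, with Zmat3 and Sesn2 1451599_at, were beyond it, those of Sesn3 downward.

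On the arrays labelled Wip1-/-, Polk, Rrm2b, Sesn2, Sesn3, Ddit4 and Ddb2 read higher after irradiation by every probe set that passed, while Zmat3 and Xpc read lower. For Xpc the log2 ratio was -0.01. For Sesn2 one probe set had 0.01, a sign that turned under quantile normalization, cyclic loess and scaling by the brighter probe sets. Here 12 of 15 had a ratio above 1 against 48.8% of all probe sets, or 10 of 15 under each of those 3 scalings, with a median log2 ratio of 0.23 against -0.01. One probe set, of Polk, was at least 2-fold higher and none lower, while 6.66% of all probe sets were higher and 4.81% lower by that much. The SD between probe sets was 0.62, and 4 of 15 exceeded it, 26.7% against 29.6% of all. All 4 were among the 12 brighter members, or 33.3% of them, against 23.3% of all brighter probe sets. The SD of the brighter probe sets alone was 0.55, and Ddit4, at 0.57, also exceeded it.

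**Figure D2:**
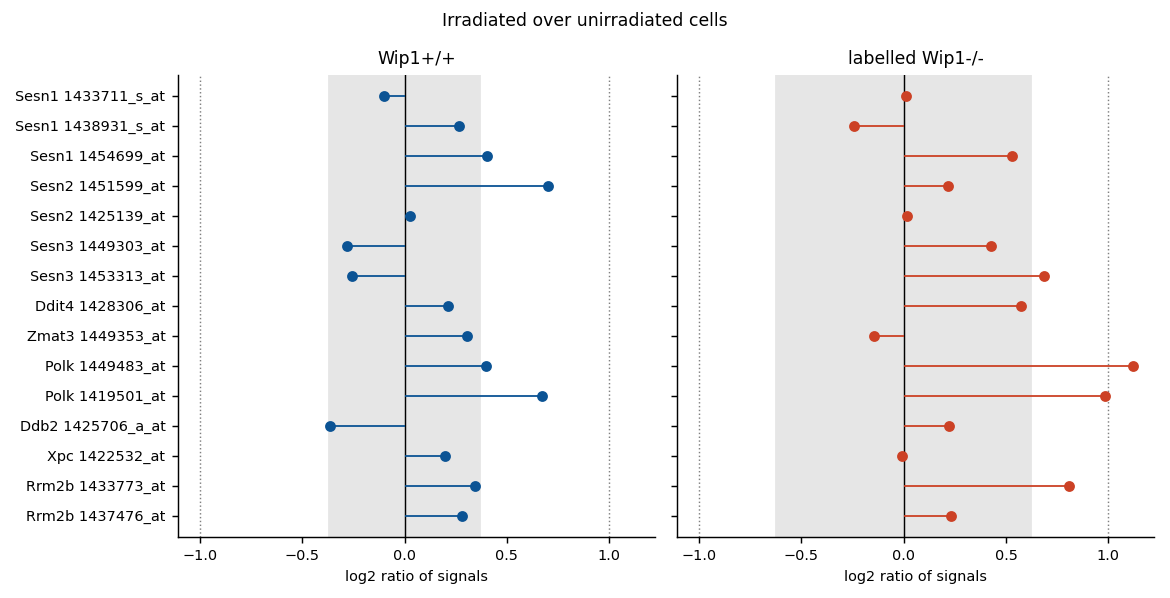
Log2 ratio of irradiated over unirradiated signal for the 15 member probe sets that passed the filter, in Wip1+/+ cells (left) and cells labelled Wip1-/- (right). Each point is 1 ratio between 2 arrays, the grey band is the SD between probe sets of one gene (0.37 left, 0.62 right), and dotted lines mark 2-fold. The Polk points lie beyond the band in both panels.

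Polk, the translesion polymerase, gave the widest irradiation ratios of the members on the arrays labelled Wip1-/-. Its brighter probe set, 1449483_at, read 1053 in unirradiated and 1388 in irradiated Wip1+/+ cells, and, in the same order, 579 and 1257 in cells labelled Wip1-/-. The other, 1419501_at, read 457 and 729 in Wip1+/+, then 301 and 597. Both irradiated arrays were above both unirradiated arrays by each probe set, and the unirradiated array labelled Wip1-/- was the lowest. Both probe sets were designed on one transcript record, so they share a target and are not independent measures.

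The Polk ratios in Wip1+/+ cells were 1.32-fold and 1.59-fold upward, or 0.40 and 0.67 on the log2 scale. Among probe sets with a mean of at least 200, 6.53% and 1.36% had a higher ratio. In cells labelled Wip1-/- the ratios were 2.17-fold and 1.98-fold, with 3.56% and 5.12% of such probe sets higher. The difference between the genotypes' log2 ratios was 0.72 and 0.31, and 11.6% and 29.2% of those probe sets had a larger one.

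Rrm2b, the subunit that supplies deoxynucleotides outside S phase, followed the same order of arrays in its brighter probe set. Probe set 1433773_at read 464 and 590.1 in Wip1+/+ cells, and 298 and 523 in cells labelled Wip1-/-. Its ratio was 1.27-fold in Wip1+/+ and 1.75-fold in cells labelled Wip1-/-. The second probe set, 1437476_at, read 316 and 383 in Wip1+/+, then 249 and 292, with ratios of 1.21-fold and 1.17-fold. The upward direction was thus shared by both probe sets in both genotypes, while the wider ratio on the arrays labelled Wip1-/- was found in one. The 2 further probe sets, 1437221_at and 1437222_x_at, were dim, at 20.9 to 51.9 and 3.7 to 57.4, and give no order of the arrays.

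Of the lesion sensors of excision repair, Xpc differed less between arrays than Ddb2. It read 229 and 262 in Wip1+/+ cells, and 254 and 253 in cells labelled Wip1-/-, a range of 1.15-fold over the arrays. Ddb2, which binds ultraviolet photolesions with Ddb1 and whose induction by p53 is known from human cells, was close to the floor. Its brighter probe set read 86.0 and 66.9 in Wip1+/+, then 61.5 and 71.6, a range of 1.40-fold, so that the log2 ratio was -0.36 in Wip1+/+ and 0.22 in cells labelled Wip1-/-. The second Ddb2 probe set was below the floor on all arrays, at 7.4 to 39.1. No Ddb2 ratio exceeded the SD between probe sets.

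Sesn2, the sestrin that senses leucine, depended on the probe set. By 1451599_at it read 567 and 921 in Wip1+/+ cells, and 671 and 779 in cells labelled Wip1-/-. By 1425139_at it read 457 and 466, then 488 and 493. The first had the widest Wip1+/+ ratio of the members, 1.63-fold, with 1.18% of the brighter probe sets above it, and the second one of 1.02-fold. Both probe sets were designed on one sequence record, and the sources used here do not say which stretch of the transcript each reads. In cells labelled Wip1-/- the ratios were 1.16-fold and 1.01-fold.

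Sesn1, another p53-responsive sestrin, had no common direction over its 3 probe sets that passed. Probe set 1433711_s_at read 317 and 296 in Wip1+/+ cells, then 277 and 279. Probe set 1438931_s_at read 163 and 196, then 217 and 183, higher after irradiation in Wip1+/+ and lower on the arrays labelled Wip1-/-. The dimmest of these, 1454699_at, read 96.0 and 127, then 125 and 180.0, with ratios of 1.32-fold and 1.44-fold. Probe sets 1433711_s_at and 1454699_at were designed on one sequence record. An ending in _s_at marks probes that can read more than 1 transcript. A further probe set, 1444376_at, failed the filter and read 39.9 and 2.3, then 95.4 and 15.9, so it was above the floor on 1 array.

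Sesn3, a sestrin also known as a target of FoxO factors, went opposite ways in the genotypes by both probe sets. Probe set 1449303_at read 743 and 613 in Wip1+/+ cells, and 442 and 594 in cells labelled Wip1-/-. Probe set 1453313_at read 399 and 333 in Wip1+/+, then 170.3 and 274. The Wip1+/+ signals were lower after irradiation by 1.21-fold and 1.20-fold, and those labelled Wip1-/- higher by 1.34-fold and 1.61-fold. The unirradiated array labelled Wip1-/- was again the lowest and the unirradiated Wip1+/+ array the highest.

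Ddit4 read 2160 and 2505 in Wip1+/+ cells, and 2012 and 2996 in cells labelled Wip1-/-. Both irradiated arrays were above both unirradiated ones, with ratios of 1.16-fold and 1.49-fold. Zmat3 read 2912 and 3596 in Wip1+/+ cells, and 3942 and 3562 in cells labelled Wip1-/-. It was therefore 1.23-fold higher after irradiation in Wip1+/+ and 1.11-fold lower on the arrays labelled Wip1-/-, where the unirradiated array was the highest of the 4. Each of these genes had 1 probe set, so no second reading of the ratio exists.

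**Figure D3:**
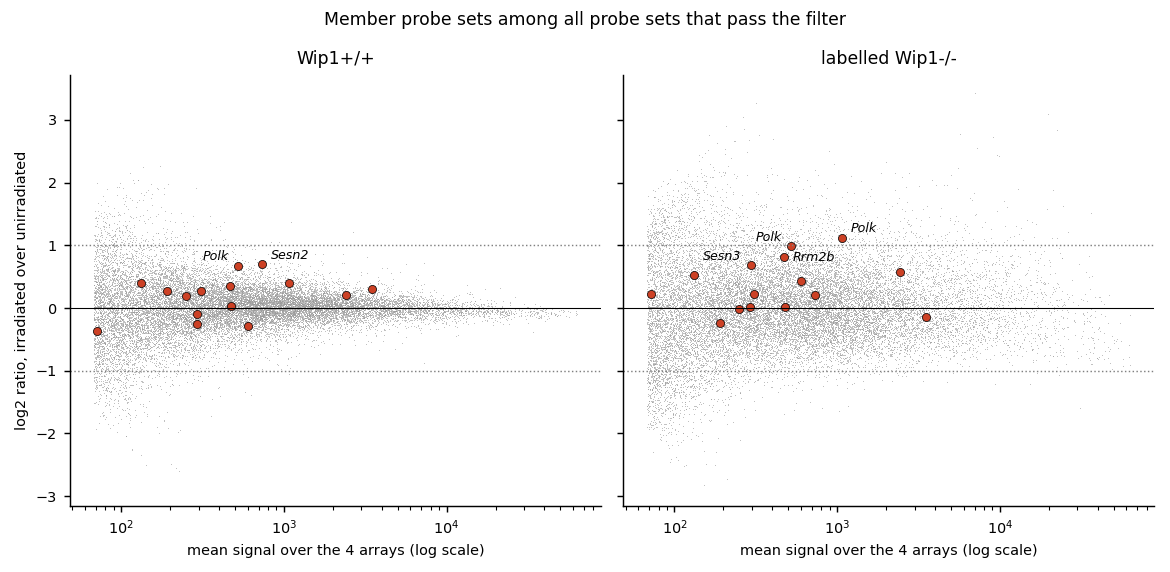
Log2 ratio of irradiated over unirradiated signal against mean signal over the 4 arrays (log axis) for all 20326 probe sets that passed the filter (grey) and the 15 member probe sets (red), in Wip1+/+ cells (left) and cells labelled Wip1-/- (right). Dotted lines mark 2-fold, and names are given where a member's log2 ratio was at least 0.6 in size. The grey cloud is wider at right, and at left it narrows as signal rises.

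Across the arrays, 6 of the 15 probe sets were higher on both irradiated arrays than on both unirradiated ones: both of Polk, and 1 each of Rrm2b, Sesn1, Sesn2 and Ddit4. The same held for 16.1% of all probe sets. An irradiated array was the lowest of the 4 for none of the 15 member probe sets, against 43.5% of all probe sets. The lowest was the unirradiated array labelled Wip1-/- for 9 and the unirradiated Wip1+/+ array for 6, where these arrays were lowest for 35.2% and 21.3% of all. When the 4 signals of each probe set were put in order, 3 of the 45 steps between neighbours exceeded the SD between probe sets for that pair of arrays. These were the lowest step of Polk 1449483_at, that of Sesn3 1453313_at, and the highest step of Sesn1 1454699_at. All other neighbours in the order were not separated beyond that SD. The share of such steps over all probe sets was not computed, so 3 of 45 has no background here.

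The genotypes were compared before and after irradiation. These comparisons use the same 4 arrays as the irradiation comparisons, so a low or high array enters both. Without irradiation, Sesn3, Polk, Rrm2b, Ddb2 and Ddit4 read lower on the array labelled Wip1-/- by every probe set that passed, and Sesn2, Zmat3 and Xpc read higher. The median log2 ratio was -0.20 against 0.02 for all probe sets. Sesn3 was 2.34-fold and 1.68-fold lower, Polk 1.82-fold and 1.52-fold lower, and the brighter Rrm2b probe set 1.56-fold lower. None was at least 2-fold higher and 1 was lower by that much, a Sesn3 probe set, where 5.57% of all probe sets were higher and 7.72% lower. The SD between probe sets was 0.65, exceeded by both Sesn3 probe sets and 1 of Polk, or 20.0% against 29.8% of all. These were 25% of the 12 brighter members, against 23.5% of all brighter probe sets. The SD of the brighter probe sets alone was 0.57. Polk 1419501_at, at -0.60, and Rrm2b 1433773_at, at -0.64, were also beyond that.

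After irradiation the genotypes lay closer. All 15 ratios were within 1.42-fold, and none was at least 2-fold higher or lower, where 2.71% of all probe sets were higher and 2.76% lower by that much. The median log2 ratio was -0.08 against 0.01 for all probe sets. Of the 15, 11 were below 1 and 4 above it, where 51.0% of all probe sets were above 1. Only the Sesn1 probe set 1454699_at exceeded the SD of 0.41, 6.67% of the members against 25.8% of all probe sets. None of the 12 brighter members did, against 16.0% of all brighter probe sets. The SD of the brighter probe sets alone was 0.30, and Rrm2b 1437476_at, at -0.39, was beyond that. Polk was 1.10-fold and 1.22-fold lower on the array labelled Wip1-/-, Rrm2b 1.13-fold and 1.31-fold lower, and Ddit4 1.20-fold higher. Sesn2 1451599_at was 1.18-fold lower, and Zmat3 was 1.01-fold lower.

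**Figure D4:**
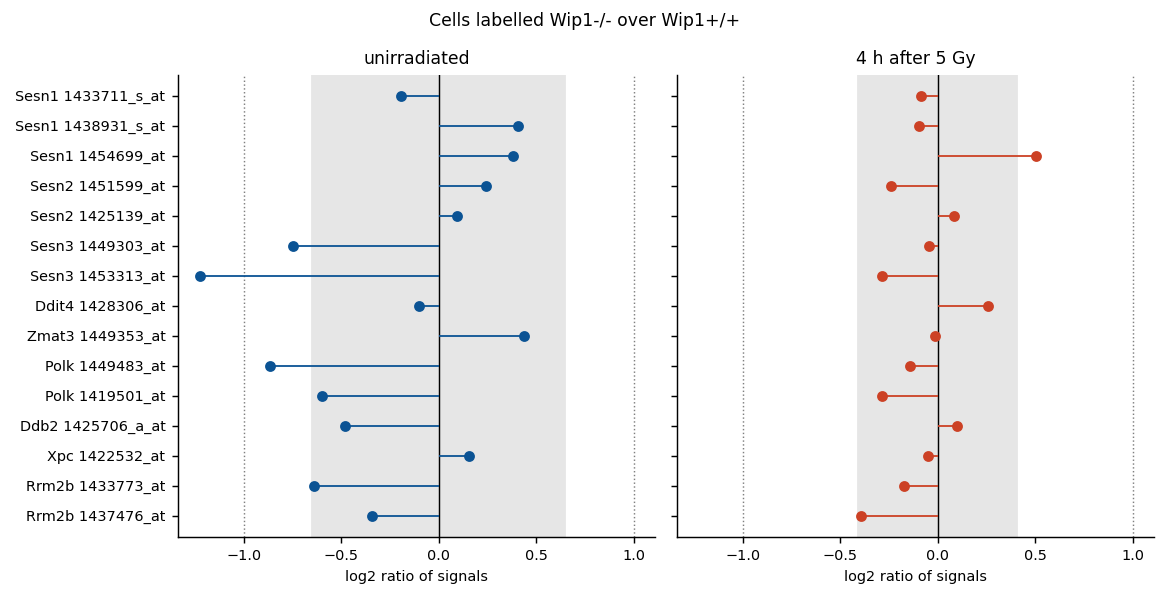
Log2 ratio of signal in cells labelled Wip1-/- over Wip1+/+ for the 15 member probe sets, unirradiated (left) and 4 h after 5 Gy (right). Each point is 1 ratio between 2 arrays, the grey band is the SD between probe sets of one gene (0.65 left, 0.41 right), and dotted lines mark 2-fold. Points spread from -1.23 to 0.44 at left and from -0.39 to 0.50 at right.

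The irradiation log2 ratios of the genotypes differed by at least 1 in none of the 15 probe sets, where 8.23% of all probe sets had a difference of that size upward on the arrays labelled Wip1-/- and 6.68% downward. The differences ran from -0.51 for Sesn1 1438931_s_at to 0.94 for Sesn3 1453313_at, with a median of 0.12 against 0.00 for all probe sets. The SD between probe sets was 0.71, exceeded by Sesn3 1453313_at and Polk 1449483_at, or 13.3% of the members against 27.7% of all probe sets. Both were among the 12 brighter members, 16.7% of them against 20.0% of all brighter probe sets. The SD of the brighter probe sets alone was 0.59, and Sesn3 1449303_at also exceeded it.

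The other genes of these pathways were read from 1 probe set each, the brightest, over 11546 genes that passed the filter. In Wip1+/+ cells 1.58% of all genes were at least 2-fold higher after irradiation and 1.5% lower, and on the arrays labelled Wip1-/- 5.7% and 4.62%. A ratio above 1 was found in 52.3% of all genes in Wip1+/+ cells and in 47.4% on the arrays labelled Wip1-/-, the background for the counts that follow. Of the excision repair genes, 17 of 27 measured genes had a ratio below 1 in Wip1+/+ cells, with a median log2 ratio of -0.06 against 0.01 for all genes, and none was 2-fold apart. The lowest were Xab2, a factor of transcription-coupled repair, at -0.65, and Ercc8, of the same branch, at -0.60. Other probe sets of Xab2 had 0.10 and 0.26, and another of Ercc8 -0.11. On the arrays labelled Wip1-/- the median was -0.07 against -0.03, with Ercc4, a nuclease subunit, 2.11-fold higher (other probe sets 0.10 to 1.23 on the log2 scale) and Ercc2, a helicase of TFIIH, 2.14-fold lower.

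Translesion synthesis genes other than Polk were centred on 0 in Wip1+/+ cells, with 7 of 14 above 1 and none 2-fold apart. Rev3l, the catalytic subunit of polymerase zeta, had a log2 ratio of 0.66, but its other probe set -0.83, and Poli, a polymerase of the same family as Polk, had 0.35. In cells labelled Wip1-/- the median was 0.07, and Shprh, a ubiquitin ligase for Pcna, was 2.60-fold higher, with other probe sets from -0.89 to 0.90 on the log2 scale. Rev1, the scaffold of these polymerases, read 427 and 409 in Wip1+/+ cells, and 189 and 338 in cells labelled Wip1-/-. As with Polk, its lowest signal was on the unirradiated array labelled Wip1-/-.

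Of the nucleotide supply genes other than Rrm2b, 6 of 14 were above 1 in Wip1+/+ cells, with a median of -0.03 and none 2-fold apart. Rrm1, the large subunit, had a log2 ratio of -0.24, and Rrm2, the S phase small subunit, one of 0.11, with other probe sets from 0.04 to 0.70. On the arrays labelled Wip1-/- the median was -0.18, and 2 genes were at least 2-fold higher. Nme1, a nucleoside diphosphate kinase, read 2054 without irradiation and 11093 after it, against 12742 and 12297 in Wip1+/+ cells, but its other probe set had a log2 ratio of -0.56. Dck, deoxycytidine kinase, was 2.65-fold higher, with its other probe sets at -0.33 and 0.16.

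The list of sestrin and Ddit4 signalling to TORC1 also holds subunits of TORC1, targets of it, and Rictor and Mapkap1 of TORC2. Its genes split evenly in Wip1+/+ cells, 17 of 34 above 1, with a median of 0.00 and none 2-fold apart. Ddit4l, the paralogue of Ddit4 and likewise an inhibitor of TORC1, read 836 and 1369 in Wip1+/+ cells, and 897 and 1127 in cells labelled Wip1-/-. Its ratio was 1.64-fold in Wip1+/+, and its other probe sets had log2 ratios of 0.76 to 0.99 there. Prkaa1, a catalytic subunit of AMPK, was 1.53-fold higher in Wip1+/+ cells, with a log2 ratio of -0.15 on the arrays labelled Wip1-/-. In the latter, Ulk1, the kinase that starts autophagy, was 2.04-fold higher, with -0.79 by its other probe set, and Deptor, a TORC1 inhibitor, was 2.30-fold lower, with log2 ratios from -0.50 to 0.64 by its others. The median there was -0.04.

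Further p53 targets of metabolism and repair, 4 of them shared with the lists above, had a median of 0.15 in Wip1+/+ cells, with 11 of 17 above 1 and none 2-fold apart. The highest were Trp53inp1, a stress protein of the p53 pathway, at 0.80, and Acad11, an acyl-CoA dehydrogenase, at 0.70. Their other probe sets had 0.28 and 0.38. Tigar, which redirects glycolysis, had -0.21, with other probe sets from -0.05 to 0.60. On the arrays labelled Wip1-/- the median was 0.05, with Trp53inp1 2.19-fold and Dram1, an autophagy regulator, 2.03-fold higher. The probe sets of Acad11 disagreed there, with log2 ratios of -0.39 by the brighter and 1.37 by the other. By comparison, p53 targets of arrest and apoptosis had medians of 0.34 and 0.42, with 18 and 14 of 20 above 1. At least 2-fold higher were 1 and 4 of the 20, against 1.58% and 5.7% of all genes, and 0 were lower by that much.

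The lists of other known inputs to the sestrins and Ddit4 differed from each other. Genes of the integrated stress response, to which Sesn2 and Ddit4 belong through Atf4, had a median of -0.07 in both genotypes, with Chac1, a glutathione-degrading enzyme, 2.56-fold higher in Wip1+/+. Slc7a11, a cystine transporter, was at least 2.73-fold lower on the arrays labelled Wip1-/-, where it fell below the floor after irradiation. FoxO targets had a median of 0.22 in Wip1+/+ cells and 0.75 in cells labelled Wip1-/-, against 0.01 and -0.03 for all genes. At least 2-fold higher in cells labelled Wip1-/- were 3 of 12, Cited2, Bcl6 and Gadd45a, against 5.7% of all genes. By their other probe sets Cited2 and Bcl6 had log2 ratios of -0.14 and -0.23 there, and Gadd45a had no other. In Wip1+/+ cells 1 of 12 was at least 2-fold higher, Gadd45a at 2.44-fold, against 1.58% of all genes. Bcl6 was 1.95-fold higher in Wip1+/+, with -0.15 by its other probe set, and Cited2 had a log2 ratio of -0.17. The median of the FoxO targets in the unirradiated genotype comparison, which uses the same unirradiated array labelled Wip1-/-, was -0.48 against 0.05 for all genes.

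**Figure D5:**
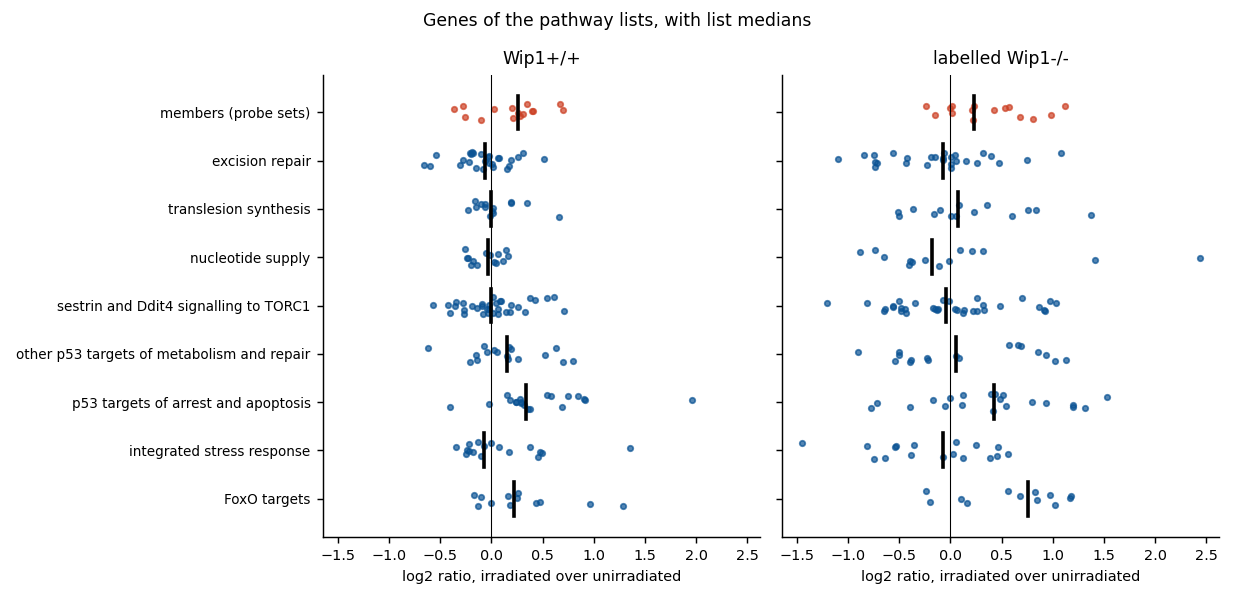
Log2 ratio of irradiated over unirradiated signal for the members (red, 1 point per probe set) and the genes of the pathway lists (blue, 1 point per gene), with list medians as black bars, in Wip1+/+ cells (left) and cells labelled Wip1-/- (right). Points are spread vertically for visibility. The member medians are 0.26 and 0.23.

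For the 3 member probe sets with a range of at least 2-fold over the arrays, the genes with the most similar profile were taken, by the root mean square difference of centred log2 signals over the 4 arrays among 1906 genes. Polk 1449483_at was closest to Vopp1, Slc29a3, a nucleoside transporter, and Ttc12, at 0.02 to 0.03. Polk 1419501_at was closest to Lama4, a laminin chain, Ptpn14, a tyrosine phosphatase, and Thap2, at 0.03 to 0.05. Sesn3 1453313_at was closest to Tubd1, delta tubulin, Mcm6, a helicase subunit of replication, and Tulp3, at 0.01 to 0.05. With 4 arrays many genes come near: 290, 150 and 209 genes were within 0.2 of these profiles.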

How the data were processed

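RNA from 4 samples of mouse embryonic fibroblasts, 1 per group, was read by the authors on 1 Affymetrix array (Mouse Genome 430 2.0) each. They deposited linear signal intensity per probe set. The submitters' processing notes name GCOS, with no version, and the background step, scaling target and detection calls are not given in the sources of this report. The 2% trimmed mean was 500.00 on each array, so the values were used as deposited. Of 45101 probe sets, 64 controls were left out, as were those with several symbols (932) or none listed. Values under the 40th percentile were set to that floor, 46.5, before log2, and probe sets with a mean of at least the median, 67.95, passed.

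Comparisons were log2 ratios between arrays, with no test. The SD between probe sets was pooled over genes with at least 2. The number of arrays limits the precision. Named genes were all member probe sets, list genes at least 2-fold apart (or the 2 widest), and the 3 closest profiles; not all are printed, and other genes given as examples (Tigar, Rrm2, Prkaa1 and the like) were picked after their values were seen. Members and lists were chosen with earlier results of these data known. Alternatives changed the normalization, floor, filter, probe sets and gene summary, and one set the irradiated array labelled Wip1-/- against both Wip1+/+ arrays, which mixes genotype and irradiation. A filter at a mean of 200 was added after seeing the data. R 4.3.3 with limma 3.58.1, and Python 3.11.15 with numpy 2.4.6 and pandas 2.3.3 were used. The ratio, count and SD steps were tested on simulated data.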

Additional observations from a re-analysis of the deposited data

Results flagged for a closer look

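In 7 of the 15 member probe sets the irradiation ratio went opposite ways in the genotypes, and none of these differences was tested, since each rests on 1 array per group. The share of all probe sets with opposite ratios was not computed, so this count is no result about the members. In the other 8 the ratio was above 1 in both genotypes, against 25.9% of all probe sets. The log2 ratio labelled Wip1-/- minus that in Wip1+/+ was 0.71 and 0.94 for the Sesn3 probe sets, where Wip1+/+ was lower and the arrays labelled Wip1-/- higher after irradiation. It was 0.58 for Ddb2, in the same sense, and -0.45 for Zmat3, in the opposite sense. For Sesn1 it was -0.51 by 1438931_s_at and 0.11 by 1433711_s_at, and for Xpc -0.21. Of the 7 with opposite ratios, all but the Sesn3 probe set 1453313_at were within 0.71, the SD of this difference between probe sets of one gene. Over the brighter probe sets alone this SD was 0.59, which Sesn3 1449303_at also exceeded.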

How the results depend on the processing

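Over 9 alternatives per comparison, the median log2 ratio of the members kept its sign and lay between 0.21 and 0.28 for irradiation in Wip1+/+ cells, 0.19 and 0.43 on the arrays labelled Wip1-/-, -0.34 and -0.10 for the unirradiated genotypes, -0.11 and -0.05 for the irradiated genotypes, and 0.11 and 0.31 for the difference of ratios. Of 635 single member values, 0 moved by more than the SD between probe sets and 6 near 0 had the opposite sign. Changes of floor, filter or probe sets could not move a ratio, since the passing members read above the floor on every array. Only the changes of normalization could, and all 6 opposite signs came from them, so the count bears on normalization alone. Without the filter, Sesn1 1444376_at entered, and 1 in place of 0 was at least 2-fold lower after irradiation on the arrays labelled Wip1-/-, 1 higher in the unirradiated genotype comparison, and 1 lower in the difference of ratios. A further comparison, made to avoid the unirradiated array labelled Wip1-/-, set the irradiated array of that genotype against the mean of both Wip1+/+ arrays. It mixes genotype and irradiation, with an irradiated array in its reference, so it is no version of the irradiation or the unirradiated genotype comparison and shows nothing about their stability. It gave a member median of 0.05, 0 members at least 2-fold higher and 0 lower, each in place of 1, and a FoxO median of -0.075. No comparison of these 4 arrays gives the irradiation ratio labelled Wip1-/- without that array. No paired analysis was possible because each group holds 1 array. Signal near the floor limits what can be read for Ddb2 and for the 4 dim probe sets.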
